A study of Mus musculus with 4 samples.

Results

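Sox7, Sox17 and Sox18 are the 3 genes of the SoxF family, taken here by symbol from the 32285 genes of each library and followed in the endothelial cells of the embryonic mouse ventricle. The 4 libraries were single-cell RNA sequencing of C57BL/6 ventricles at embryonic day 14.5, and 3 ventricles were pooled for each. In the 2 control libraries the animals were Tie2Cre;Ets1 fl/+, so that 1 copy of Ets1 was floxed in the presence of the same Cre. In the 2 eKO libraries they were Tie2Cre;Ets1 fl/fl, an endothelial deletion of the transcription factor Ets1. All 4 libraries carry the same batch label, and Tie2Cre acts in endocardium and coronary endothelium alike, as well as in cells that descend from endothelium and in part of the blood lineage.

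SoxF proteins bind DNA through a high mobility group (HMG) box and activate transcription in endothelial cells. Sox17 is known for its part in arterial fate, Sox18 for switching on Prox1 at the start of lymphatic development and for vessel integrity, and Sox7 for early endothelial and vascular patterning. The 3 factors can stand in for one another in part, and Notch pathway genes, Cdh5 and Cldn5 are among their known targets. ETS factors are known to act on many of the same endothelial enhancers.

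Sox7 lies on chromosome 14 (63943673 to 63950732, plus strand), Sox17 on chromosome 1 (4490931 to 4497354, minus strand) and Sox18 on chromosome 2 (181669836 to 181671640, minus strand), all in GRCm38 with GENCODE annotation. No annotated gene overlaps Sox7 or Sox18. The non-coding transcript Gm37587 on the other strand overlaps Sox17, with 0 to 11 UMIs per library in mural, valve or all coronary cells.

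Endothelial cells were divided by marker genes, none of them a SoxF gene, into 6 classes. Mural endocardium (the lining of the ventricular wall) held 4315 cells, valve endocardium 439 and coronary endothelium 1430. The coronary cells were divided further into 177 arterial, 152 venous-leaning, 617 cycling and 484 other cells. A further 1086 of the 7270 endothelial cells fell in no class, 11.5% and 14.5% in the controls and 15.2% and 17.0% in the eKO libraries. UMIs (unique molecular identifiers, counts of captured transcripts) were summed per class and library, giving 6385447 to 8365717 UMIs for mural endocardium, 649679 to 935214 for valve endocardium and 2980030 to 5124843 for all coronary cells. The smallest sum was that of the venous-leaning cells of control 2, with 168736 UMIs from 18 cells. Levels below are counts per 1000000 UMIs of the class (CPM). Library eKO 2 was the shallowest, with a median of 5632 UMIs per barcode against 8222 to 8630 in the other 3, and 3 barcodes among the classed cells occurred in more than 1 library. As the gates fixed, and so as a description of the classes only, the coronary list stood at 6712 to 9801 CPM in coronary cells and at 70.3 to 143 in mural cells. The mural list stood at 2313 to 3001 in mural cells, 825 to 964 in valve cells and 45.1 to 73.9 in coronary cells.

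Ets1 itself was lower in both eKO libraries in every class. In mural endocardium it stood at 280 and 261 CPM in the controls and at 124 and 95.3 in the eKO libraries, a fall of 1.26 ± 0.14 on the log2 scale (SE, n = 2 against 2; adjusted p = 0.000181, edgeR quasi-likelihood test). The fall was 1.58 ± 0.19 in valve endocardium and 1.14 ± 0.17 in all coronary cells. Ets1 was not called in arterial (-0.86 ± 0.24) or venous-leaning cells (-1.12 ± 0.34). Without eKO 1 these changes were -0.98 and -1.78. The range with a library left out was -1.03 to -0.60 in arterial and -1.78 to -0.64 in venous-leaning cells. Part of the Ets1 transcript was still counted in eKO cells. The sources used here do not say which exons the floxed allele removes, so tags from the 3' end need not lie within the deleted part.

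To show where each factor is found, its level was compared between classes with the library as a block. Sox17 separated coronary from endocardial cells most sharply. In mural endocardium Sox17 was at 4.54 and 5.32 CPM in the controls and at 3.57 and 3.43 in the eKO libraries, from 26 to 38 UMIs per library. In all coronary cells it was at 155 and 114 in the controls and at 126 and 153 in the eKO libraries, so that the lowest coronary value was far above the highest mural value. The difference, coronary minus mural, was 5.23 ± 0.12 on the log2 scale (adjusted p = 3.1e-14). Of all the genes tested, 67.5% differed between these 2 classes. Valve endocardium lay between them, with Sox17 at 33.1 and 44.3 in the controls and at 22.3 and 24.6 in the eKO libraries. Valve minus mural was 2.83 ± 0.24 (adjusted p = 3.49e-09), in a comparison that called 27.3% of genes.

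Within the coronary vessels Sox17 was highest in arterial cells, at 283 and 277 in the controls and 247 and 274 in the eKO libraries. The cycling, other and venous-leaning cells had overlapping values of 79.2 to 150. Arterial minus other was 1.26 ± 0.12 (adjusted p = 5.3e-08, with 18.2% of genes called). Venous-leaning minus other was -0.22 ± 0.16 (13.1% of genes called) and cycling minus other 0.13 ± 0.09 (14.8% of genes called), and neither passed the test for Sox17. With the stricter marker gate the venous-leaning difference was -1.23 and was called.

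Sox7 was spread more evenly over the endothelium. Its mural level was 98.9 and 94.4 in the controls and 74.7 and 75.4 in the eKO libraries, and its level in all coronary cells was 142 and 133 in the controls and 122 and 112 in the eKO libraries. Coronary minus mural was 0.76 ± 0.06 (adjusted p = 1.15e-08). In valve endocardium Sox7 was at 102 and 70.4 in the controls and at 52.0 and 67.7 in the eKO libraries. That range overlapped the mural one, and the difference of -0.27 ± 0.12 did not pass the test (adjusted p = 0.1), although it did without control 1 (-0.43, adjusted p = 0.0326). Arterial cells again held the highest level, at 215 and 305 in the controls and 300 and 218 in the eKO libraries, above the 136 to 160 of the other coronary cells by 0.80 ± 0.12 on the log2 scale (adjusted p = 2.16e-05). Sox7 was lower in cycling than in other coronary cells by 0.65 ± 0.09 (adjusted p = 1.41e-08) and in venous-leaning than in other cells by 0.64 ± 0.16 (adjusted p = 0.00495). The venous-leaning difference was not called by DESeq2 (adjusted p = 0.093) or with the stricter marker gate (adjusted p = 0.504). The venous-leaning, cycling, mural and valve ranges overlapped one another.

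Sox18 was also higher in coronary than in endocardial cells. In control mural endocardium it was at 37.5 and 25.8, in control valve endocardium at 37.4 and 47.7, and in all control coronary cells at 120 and 91.3. In the controls alone, coronary minus mural was 1.92 on the log2 scale and was called, and valve minus mural was 0.41 and was not (adjusted p = 0.165). With 2 libraries these fits have 1 residual degree of freedom per gene, so their p-values rest on the spread pooled over genes. Over all 4 libraries these differences were 2.41 ± 0.36 (adjusted p = 0.00745) and 0.72 ± 0.26 (adjusted p = 0.045). The valve difference lost its call when control 2, eKO 1 or eKO 2 was left out (0.70, 0.50 and 0.67). Among control coronary cells Sox18 was at 147 and 131 in arterial, 131 and 85.0 in other, 116 and 83.0 in venous-leaning and 106 and 87.4 in cycling cells. These ranges touched or overlapped, apart from arterial against venous-leaning and cycling. Arterial minus other was 0.47 ± 0.16 over the 4 libraries (adjusted p = 0.0412) and was not called in the controls alone (0.34, adjusted p = 0.28), by DESeq2 (adjusted p = 0.251), with total count scaling (adjusted p = 0.0631), with no filter on low counts (adjusted p = 0.0502), without control 2 (0.42, adjusted p = 0.163) or without eKO 2 (0.30, adjusted p = 0.297).

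**Figure D1:**
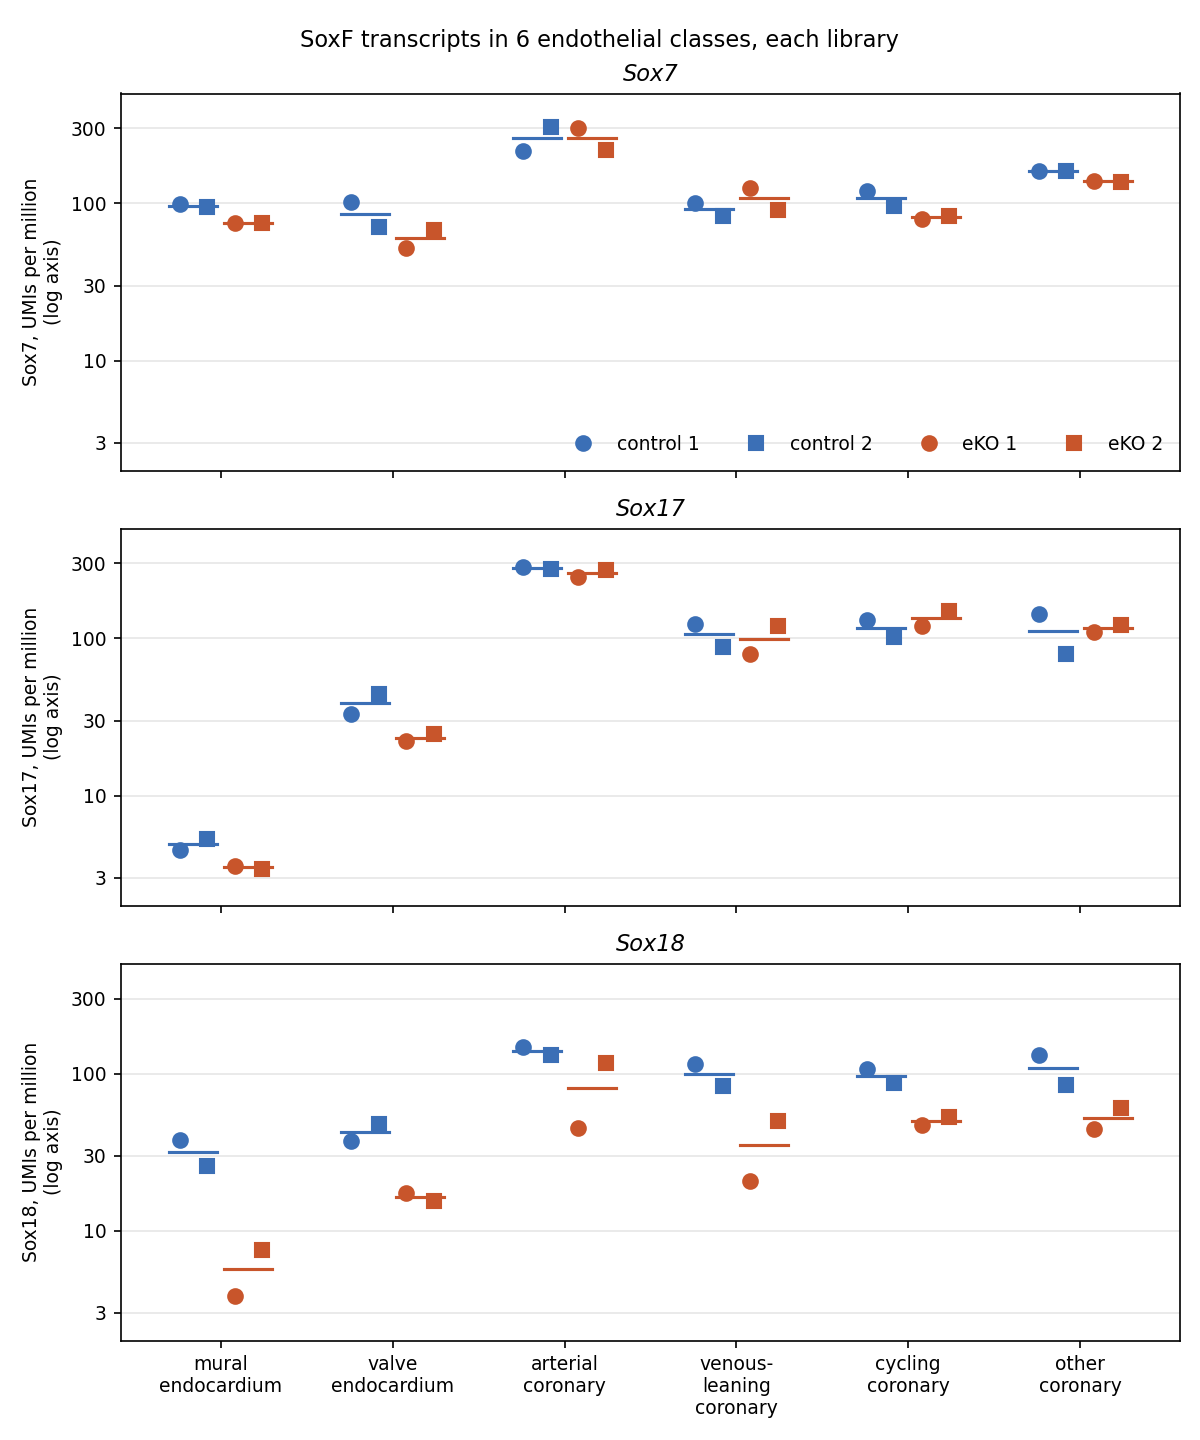
Levels of Sox7, Sox17 and Sox18 in CPM (log axis) in the 6 endothelial classes; each point is 1 library (blue control, orange eKO) and short lines are group means. Sox17 in mural endocardium lies at 3.43 to 5.32 in all 4 libraries, and Sox18 is lower in both eKO libraries than in both controls in each class.

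The 3 genes were also counted in cardiomyocytes, fibroblast-like cells and immune cells, where each was lower than in coronary endothelium. In cardiomyocytes Sox7 reached at most 0.388, Sox17 0.166 and Sox18 0.222 CPM. In fibroblast-like cells the highest values were 3.38 for Sox7, 0.33 for Sox17 and 0.202 for Sox18, each from 21 UMIs or fewer. Immune cells held no Sox17 or Sox18 UMI in any library, and 1 Sox7 UMI in each eKO library. The summed level of the lymphatic marker list in coronary cells was 72.4 and 87.2 in the controls and 52.7 and 51.0 in the eKO libraries. Most of that sum was Flt4, at 66.5 and 82.5 in the controls and 49.7 and 45.6 in the eKO libraries. In mural cells the list was at 42.3 and 42.8 in the controls and 86.0 and 56.3 in the eKO libraries. Flt4 went from 24.6 and 32.6 to 14.0 and 10.5 there, so the higher mural sum came from other genes of the list. The list is therefore not read here as a measure of lymphatic cells. Prox1, the lymphatic regulator, stood at 6.05 to 8.39 in coronary cells and at 32.7 to 42.8 in mural cells. In valve cells, where it served in the gate, it stood at 365 to 527.

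In the main comparison of the study, eKO against control, Sox18 was the one SoxF gene that passed the test in any class. In mural endocardium Sox18 went from 37.5 and 25.8 CPM (314 and 165 UMIs) in the controls to 3.84 and 7.59 (28 and 62 UMIs) in the eKO libraries. Both eKO values were below both control values with a wide gap between them. The change was -2.40 ± 0.29 on the log2 scale (adjusted p = 0.00117), in a class where 4.05% of the 13011 genes tested were called. It passed the test in all 12 alternatives, with values of -3.01 to -2.00, among them the fit without mural cells past the cycling threshold (-2.49). That last fit was added because such cells made up 8.74% and 13.0% of mural cells in the controls and 14.4% and 18.4% in the eKO libraries. Mural cells past the threshold held Sox18 at 23.1 and 23.9 in the controls and at 5.49 and 7.07 in the eKO libraries. Those below it held 39.5 and 26.3 against 3.43 and 7.77.

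In all coronary cells Sox18 stood at 120 and 91.3 CPM in the controls and at 44.1 and 60.9 in the eKO libraries. The fall of 0.93 ± 0.18 was called (adjusted p = 0.0256, with 1.16% of 11240 genes called). The call was lost without control 1, the control with the higher Sox18 (-0.72, adjusted p = 0.136), and with the replicate block (-0.93, adjusted p = 0.061). Cycling coronary cells gave a similar value, from 106 and 87.4 to 46.8 and 52.7, a fall of 0.89 ± 0.18 (adjusted p = 0.00524, with 1.62% of genes called). It too was not called without control 1 (-0.74, adjusted p = 0.156), nor by DESeq2 (adjusted p = 0.11).

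The 3 smaller coronary classes and valve endocardium had lower Sox18 in both eKO libraries as well, without passing the test. In other coronary cells Sox18 was at 131 and 85.0 in the controls and at 44.2 and 60.1 in the eKO libraries (-1.02 ± 0.24, adjusted p = 0.0824, with 0.352% of genes called). This change ranged from -1.26 (without control 2 or without eKO 2) to -0.63 with a library left out. The class was called with total count scaling (-1.09, adjusted p = 0.0411) and with no filter on low counts (-1.01, adjusted p = 0.00201). In venous-leaning cells Sox18 was at 116 and 83.0 against 20.9 and 49.6, from 5 to 56 UMIs (-1.42 ± 0.45, adjusted p = 0.629, with 0.0776% called). The venous-leaning change ranged from -2.28 to -0.99 with a library left out. In arterial cells Sox18 was at 147 and 131 against 44.9 and 117 (-0.68 ± 0.30, adjusted p = 0.431, with 0.556% called). The 2 eKO libraries differed most there. With a library left out, the arterial change ranged from -1.58 (without eKO 2) to -0.18. In valve endocardium Sox18 was at 37.4 and 47.7 against 17.3 and 15.4, from 10 to 42 UMIs (-1.32 ± 0.35, adjusted p = 0.0767, with 0.681% called). Valve cells of the eKO libraries had lower cycling (907 and 1025 against 1276 and 1458) and arterial lists (153 and 112 against 160 and 284). Their venous-leaning (234 and 277 against 200 and 204) and cardiomyocyte lists (804 and 1279 against 770 and 626) were higher. The endothelial, mural, valve, coronary and lymphatic lists overlapped. The part of these lists was not tested.

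The change of Sox18 differed between mural and coronary endothelium. In a model with a term for class by condition, the coronary change lay 1.46 ± 0.19 above the mural one on the log2 scale (adjusted p = 8.87e-05, where 1.85% of genes were called). It was between 1.30 and 1.79 whichever library was left out, and was called each time. For Ets1 the same term was 0.08 ± 0.09 (adjusted p = 0.774), and its valve minus mural and arterial minus other terms were -0.33 ± 0.19 and 0.21 ± 0.23 (adjusted p = 0.69 and 0.923). The mural cells of the eKO libraries also had a lower summed level of the mural marker list (2565 and 2313 against 3001 and 2847) and a higher one of the coronary list (114 and 143 against 74.7 and 70.3). Of the other lists, the fibroblast and mesenchyme list (698 and 682 against 569 and 527), the cardiomyocyte list (938 and 1170 against 925 and 547), the cycling list (942 and 1275 against 655 and 865) and the lymphatic list were higher there. The venous-leaning (506 and 487 against 659 and 606), valve (207 and 173 against 215 and 224), arterial (241 and 236 against 248 and 243) and epicardium lists (6.58 and 5.87 against 7.65 and 7.05) were lower, and the immune, erythroid, vascular mural cell and endothelial lists overlapped. The gates capped the cardiomyocyte, fibroblast and mesenchyme, and immune lists in every endothelial cell. The part of all these lists in the Sox18 result was not tested. For valve against mural endocardium the Sox18 term was 1.13 ± 0.45 and was not called (adjusted p = 0.375, with 0.952% of genes called), and for arterial against other coronary cells it was 0.34 ± 0.31 (adjusted p = 0.918, with 0.0985% called).

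Sox7 was not called in any class. Its mural level was lower in both eKO libraries (74.7 and 75.4 against 98.9 and 94.4), a difference of -0.31 ± 0.13 that did not pass after adjustment (unadjusted p = 0.0276 from edgeR, adjusted p = 0.183). It was -0.50 ± 0.25 in valve endocardium and -0.15 ± 0.14 in all coronary cells (adjusted p = 0.503 and 0.684, edgeR). Cycling and other coronary cells had -0.33 ± 0.16 and -0.14 ± 0.18 (adjusted p = 0.385 and 0.863, edgeR). Both eKO libraries lay below both controls in these classes too. With a library left out, Sox7 ranged from -0.75 to -0.18 in valve and from -0.47 to -0.17 in cycling coronary cells. Arterial and venous-leaning cells had values of 0.09 ± 0.22 and 0.21 ± 0.36, with overlapping groups. The class by condition term for coronary against mural was 0.12 ± 0.11 (adjusted p = 0.701).

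Sox17 was not called either, and its values lay on both sides of 0. They were -0.43 ± 0.31 in mural endocardium, -0.68 ± 0.33 in valve endocardium and 0.13 ± 0.17 in all coronary cells, with adjusted p-values of 0.457, 0.504 and 0.794. In cycling coronary cells the controls had 131 and 101 and the eKO libraries 121 and 150, which overlapped (0.29 ± 0.17, adjusted p = 0.463). Arterial, venous-leaning and other coronary cells lay between -0.08 and 0.08 on the log2 scale, with SEs of 0.21 to 0.36. The class by condition term of Sox17 for coronary against mural was 0.51 ± 0.28 (adjusted p = 0.48).

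**Figure D2:**
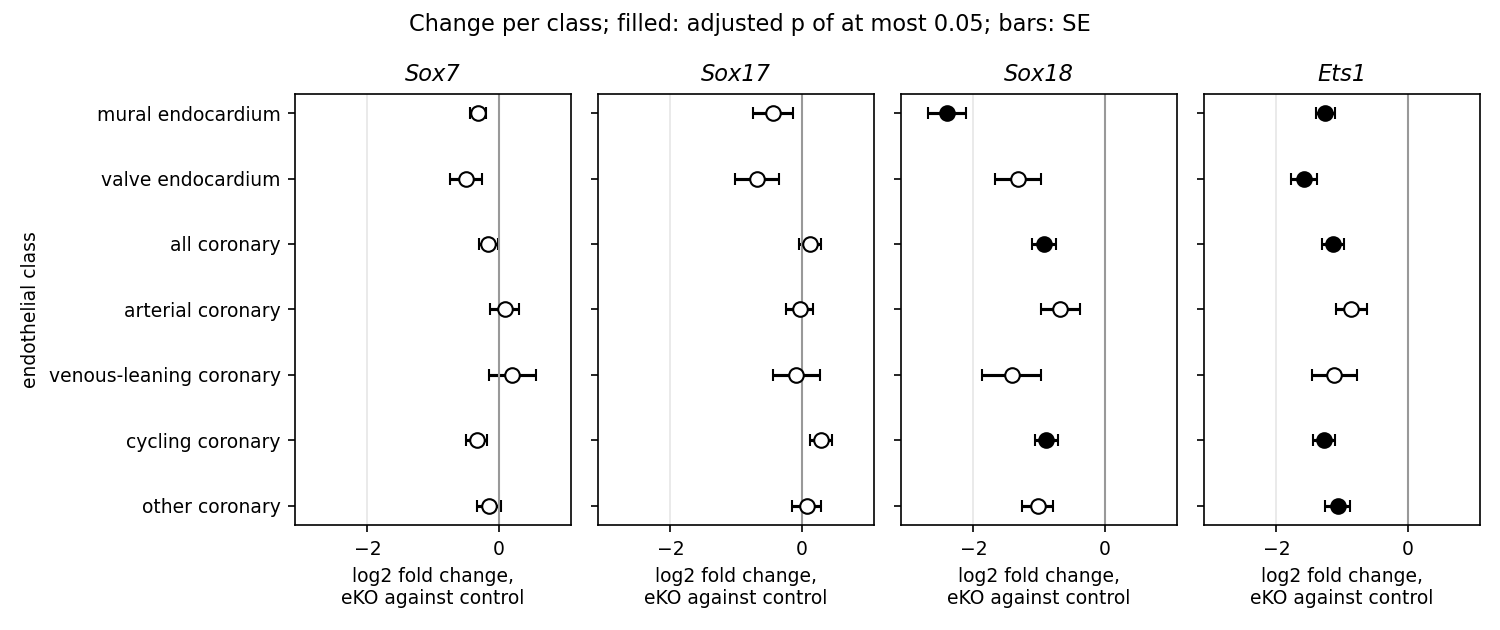
Log2 fold change of eKO against control with its SE for each SoxF gene and for Ets1 in each endothelial class; filled points have an adjusted p of at most 0.05. Among the SoxF genes only Sox18 has filled points (mural -2.40, all coronary -0.93, cycling coronary -0.89), while Ets1 lies between -1.58 and -0.86 in all classes.

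The share of each gene among the SoxF UMIs of a library was also compared. In mural endocardium Sox18 contributed 26.6% and 20.6% of the SoxF UMIs in the controls and 4.67% and 8.78% in the eKO libraries. The Sox7 share of mural SoxF UMIs was 70.1% and 75.2% in the controls and 91.0% and 87.3% in the eKO libraries. In all coronary cells the Sox18 share was 28.7% and 26.9% in the controls and 15.1% and 18.7% in the eKO libraries, while that of Sox17 was 37.2% and 33.8% against 43.2% and 46.9%. The groups did not overlap in any of these 4 shares (p = 0.333, exact permutation test, two-sided, the smallest that 2 against 2 libraries allow). The shares of the 3 genes sum to 100%, so a lower Sox18 share raises the others, and the higher Sox7 and Sox17 shares are not separate results: mural Sox7 was lower in CPM in both eKO libraries and coronary Sox17 overlapped.

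The share of cells with at least 1 UMI was then compared after thinning every cell to 2000 UMIs, which set aside shallower cells (19 to 83 mural cells per library). Sox18 was found in 7.31% of mural cells of control 1 (95% exact binomial interval 5.78 to 9.11%) and in 4.29% of control 2 (2.94 to 6.04%). In the eKO libraries it was found in 0.568% (0.185 to 1.32%) and 1.28% (0.785 to 1.97%), and neither interval reached those of the controls. In all coronary cells the Sox18 shares were 22.6% and 14.5% in the controls and 6.76% and 10.4% in the eKO libraries, and the interval of control 2 (9.93 to 20.2%) overlapped those of both eKO libraries. Sox7 was found in 18.8% and 16.3% of control mural cells and in 14.1% and 12.4% of eKO mural cells, and in coronary cells in 22.6% and 22.0% against 19.9% and 17.8%. Sox17 was found in 0.455% to 1.20% of mural cells and in 17.5% to 26.4% of coronary cells.

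In cardiomyocytes, thinned to the same depth, the shares were at most 0.117% for Sox7, 0.0635% for Sox17 and 0.0739% for Sox18. Fibroblast-like cells reached 0.491% for Sox7 and 0.156% for Sox17, with no Sox18 UMI. The mural shares lay above these values, but some intervals overlapped. For Sox17 in eKO 1 the mural interval (0.124 to 1.16%) overlapped the cardiomyocyte one (up to 0.157%) and the fibroblast-like one (up to 0.489%). Mural and fibroblast-like Sox17 intervals also overlapped in control 2 (0.391 to 1.99% against up to 0.538%). They did so in eKO 2 as well (0.353 to 1.26% against up to 0.867%). For Sox18 the mural interval of eKO 1 (0.185 to 1.32%) overlapped the fibroblast-like one (up to 0.489%). Before thinning, the median depth was 4274 to 7368 UMIs in mural cells and 7499 to 12361 in cardiomyocytes. With all UMIs kept, Sox18 was found in 23.2% and 17.7% of control mural cells against 2.77% and 3.59% in the eKO libraries, and Sox17 in 1.52% to 3.01% of mural cells over the 4 libraries. For every share the exact permutation p over libraries could not go below 0.333, and it was 0.333 for Sox18 in mural, valve and all coronary cells. Intervals cover counting error only. The mural Sox7 difference of -4.36 percentage points was -0.487 at 1000 UMIs per cell, -2.29 with the stricter cell filter and -12.9 with all UMIs. Without removal of doublets the coronary Sox7 difference, -3.41 percentage points, became 1.24. That setting took the coronary cells of control 1, control 2, eKO 1 and eKO 2 from 368, 205, 311 and 546 to 378, 208, 323 and 567. The mural Sox17 difference, -0.506 points, became 0.195 with the stricter cell filter. Each change of cells or thinning depth came with a new random draw of UMIs. These shifts therefore include the spread of the draw, which was not measured.

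**Figure D3:**
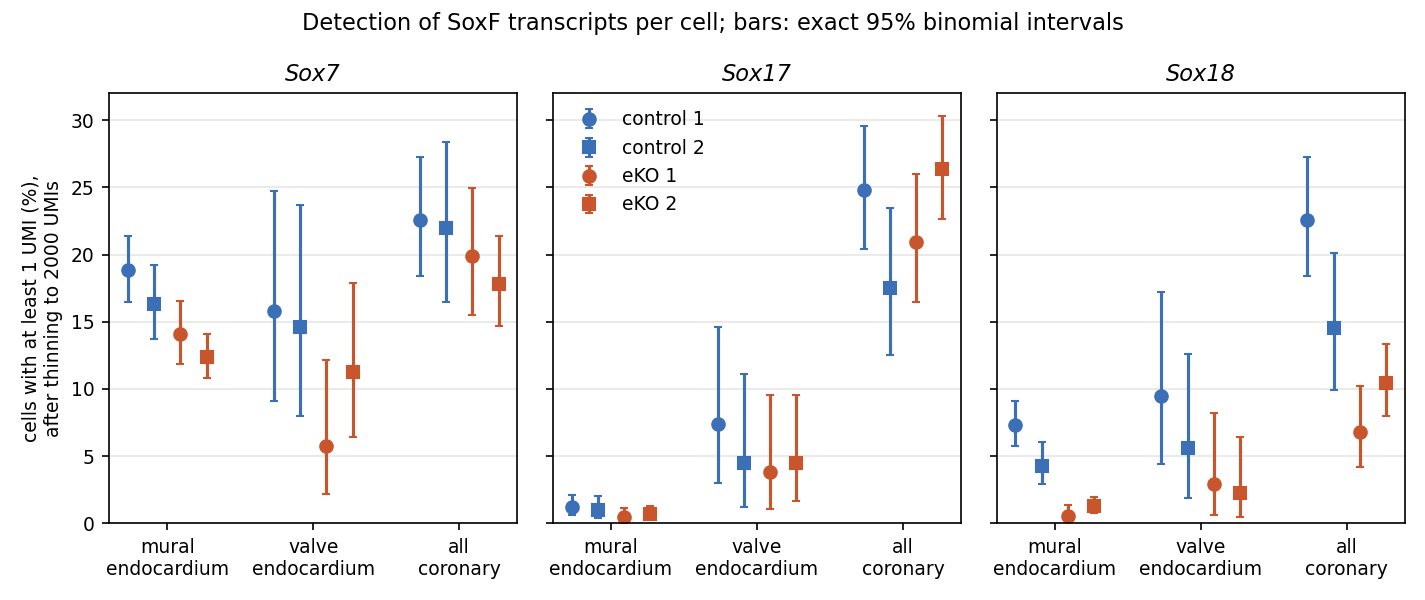
Percentage of cells with at least 1 UMI of each SoxF gene after thinning to 2000 UMIs per cell, by library (blue control, orange eKO), with exact 95% binomial intervals. The mural Sox18 shares are 7.31% and 4.29% in the controls and 0.568% and 1.28% in the eKO libraries, and the Sox17 shares are at or below 1.20% in mural cells of every library.

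Co-detection in single cells was compared with the product of the single shares, computed within each coronary class and library and summed. At 2000 UMIs per cell, 61 of 1386 coronary cells held both Sox7 and Sox17 where 70.1 were expected. Sox7 and Sox18 were found together in 42 cells where 41.0 were expected, and Sox17 and Sox18 in 44 where 45.6 were expected. All 3 genes were found together in 9 cells against 10.8 expected. The ratio of observed to expected cells was 0.87, 1.02, 0.97 and 0.83 for these 4 sets, on either side of 1. In control 1, 5 of 363 coronary cells held all 3 genes, in control 2 it was 1 of 200, in eKO 1 it was 1 of 296 and in eKO 2 it was 2 of 527.

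With all UMIs kept, and so with cells of unequal depth, the same pairs exceeded the product by small margins in each library. All 3 genes were found together in 340 of 1430 coronary cells where 257 were expected. That was 38.6% and 29.8% of coronary cells in the controls and 15.8% and 16.1% in the eKO libraries. Sox7 and Sox17 were found together in 561 cells against 507 expected, Sox7 and Sox18 in 444 against 398, and Sox17 and Sox18 in 463 against 417. The part of cell depth in this excess was not tested, and the 9 triple cells left after thinning are too few to compare with it. In mural endocardium co-detection was rare: at 2000 UMIs, 27 of 4160 cells held Sox7 and Sox18 (22.0 expected), 2 held Sox7 and Sox17 (5.33 expected), 1 held Sox17 and Sox18, and 0 held all 3.

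**Figure D4:**
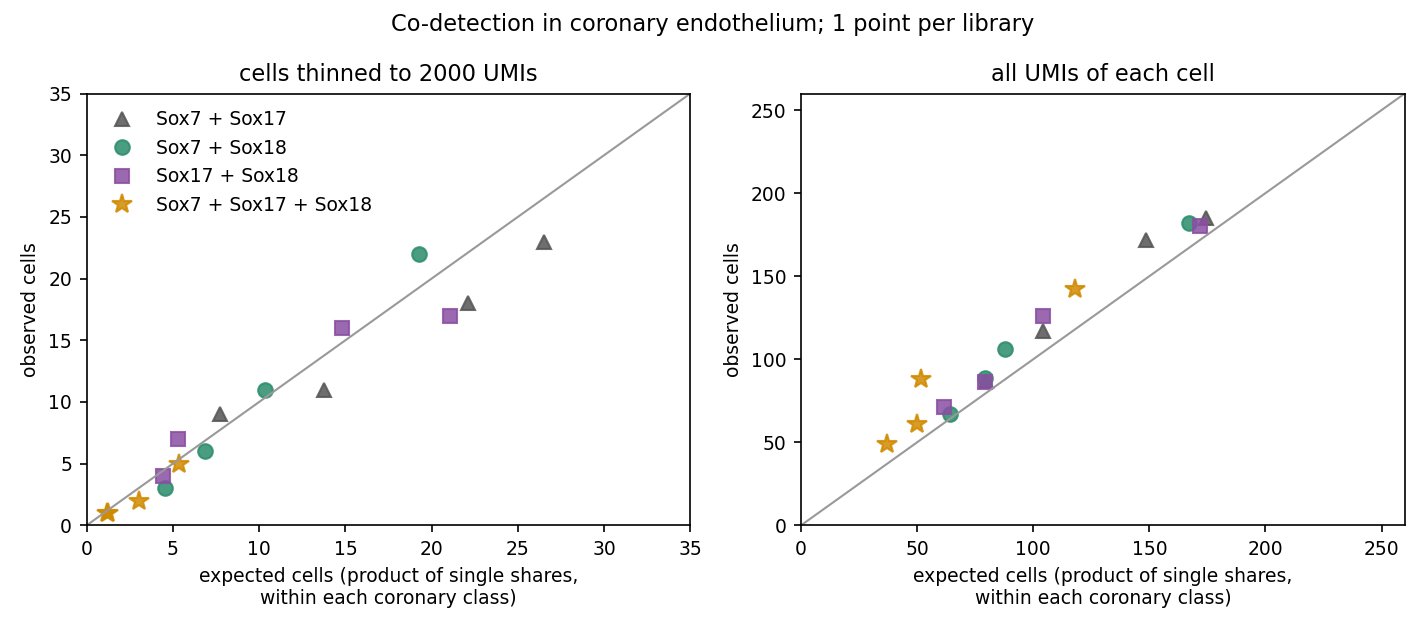
Observed against expected numbers of coronary cells with 2 or 3 SoxF genes, 1 point per library, after thinning (left) and with all UMIs (right); the line marks equality. After thinning the points scatter around the line (44 observed and 45.6 expected for Sox17 with Sox18), and with all UMIs they lie above it, most for the triple (340 observed and 257 expected).

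Cells were also divided by the number of SoxF genes seen in them, again at 2000 UMIs. None of the 3 was seen in 74.2% and 79.5% of control mural cells and in 85.1% and 85.9% of eKO mural cells. In coronary cells none was seen in 44.4% and 56.5% in the controls and in 58.1% and 54.5% in the eKO libraries, where the groups overlapped. Arterial cells had the smallest share without any SoxF UMI in each of the 4 libraries, 18.0% and 36.0% in the controls and 29.7% and 31.2% in the eKO libraries.

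The 16 other genes named Sox and a number were listed beside the family. Of these, 7 were tested in mural endocardium, 6 in valve endocardium and 6 in all coronary cells. None was called in mural or valve cells by edgeR or DESeq2, where 4.05% and 0.681% of all genes were called. At an unadjusted p under 0.05, 2 of the 7 were higher in mural cells, 1 of the 6 was lower in valve cells, and 1 was higher and 1 lower in coronary cells. At the same threshold 1305 of all 13011 mural genes were higher and 1385 lower. For all genes it was 427 and 450 of 8808 in valve cells, and 695 and 735 of 11240 in coronary cells. The higher coronary one was Sox5, named after its values were seen (0.67 ± 0.23, adjusted p = 0.229). The one that passed the test was Sox6, a SoxD factor, in coronary cells, where 1.16% of all genes were called. It stood at 25.0 and 25.5 CPM in the controls and at 14.2 and 8.99 in the eKO libraries, a fall of 1.06 ± 0.23 (adjusted p = 0.0392). Sox6 was not called without eKO 2 (-0.76, adjusted p = 0.117), with the stricter marker gate (-0.63) or by DESeq2 (adjusted p = 0.25). Its values were 0.40 ± 0.18 in mural cells and -0.62 ± 0.23 in valve cells, with no call in either (adjusted p = 0.223 and 0.317). The median change of the other Sox genes tested was -0.09 in mural, -0.17 in valve and -0.14 in coronary cells, beside medians of 0.00, 0.01 and 0.01 over all genes tested.

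A list of 21 known targets and partners of SoxF factors was examined in the same way, from Notch pathway and junction genes to venous and lymphatic regulators. In mural endocardium 20 were tested, and 5 fell and 0 rose by edgeR, with 5 called by DESeq2. The sets were not the same, since Notch4 was called by edgeR but not by DESeq2. Over all 13011 genes tested there, 238 rose and 289 fell (4.05% called). That balance moved to 222 and 477 with total count scaling and to 965 and 608 without eKO 1. At an unadjusted p under 0.05, 1 of the list was higher and 9 were lower in mural cells, beside 1305 higher and 1385 lower over all genes. The median change of the list was -0.30 in mural cells against 0.00 over all genes. In valve endocardium 0 of 16 and in coronary cells 0 of 21 were called by edgeR, and 0 by DESeq2 in either class, where edgeR called 0.681% and 1.16% of all genes, so that lists of this size would hold few or no calls at the background share. At an unadjusted p under 0.05, 4 were higher and 2 lower in valve cells, beside 427 and 450 of all 8808 genes. In coronary cells 3 were higher and 8 lower, beside 695 and 735 of all 11240 genes. The medians were 0.00 and -0.19. Cdh5, Nr2f2 and Prox1 of this list also served in the class gates.

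Robo4, a receptor of endothelial stability, had the largest mural change of the list genes tested. It stood at 16.5 and 14.4 CPM in the controls and at 3.98 and 5.75 in the eKO libraries, a fall of 1.60 ± 0.24 (adjusted p = 0.00155). Flt4, the receptor for Vegfc, went from 24.6 and 32.6 to 14.0 and 10.5 (-1.17 ± 0.21, adjusted p = 0.00524). Robo4 and Flt4 were called in all 12 alternatives. Notch4 went from 21.0 and 25.1 to 14.4 and 12.0 (-0.75 ± 0.19, adjusted p = 0.0397). Its call was lost without control 2 (-0.59), without eKO 2 (-0.64), by DESeq2 (adjusted p = 0.145), with doublets kept (adjusted p = 0.0542) and with the stricter marker gate (adjusted p = 0.0787). Kdr, the main receptor for Vegfa, went from 289 and 328 to 218 and 186 (-0.56 ± 0.14, adjusted p = 0.0395), and was not called without control 1, control 2 or eKO 2 (-0.65, -0.43 and -0.46) or with the replicate block (adjusted p = 0.0609). The fifth called gene, Efnb2, an arterial ephrin, went from 168 and 159 to 110 and 107 (-0.53 ± 0.12, adjusted p = 0.0274) and was not called without control 1 or control 2 (-0.50 and -0.54) or with the stricter marker gate (-0.45, adjusted p = 0.06). In coronary cells, where none of these 5 was called, the change was -0.58 ± 0.14 for Efnb2, -0.55 ± 0.16 for Flt4, -0.38 ± 0.17 for Notch4, -0.32 ± 0.15 for Robo4 and -0.03 ± 0.15 for Kdr. Whether the mural and coronary changes of these genes differ is not given here.

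Over the 24 sums of 6 classes and 4 libraries, 6683 genes with a mean of at least 20 CPM were ranked by the Pearson correlation of their log2 levels with each SoxF gene. The nearest genes to Sox7 were Vegfc (r = 0.92), Sat1 (0.90) and Map4k3 (0.90). Those nearest to Sox17 were Basp1 (0.97), Cldn5 (0.96) and S100a16 (0.96), and those nearest to Sox18 were Anxa3 (0.92), S100a16 (0.88) and Apold1 (0.87). Sox17 and Sox18 correlated at 0.80, Sox7 and Sox17 at 0.62, and Sox7 and Sox18 at 0.58. The 24 points share 4 libraries and 1 set of class markers, so these values describe the pattern and are given without a test.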

How the data were processed

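Single-cell suspensions of whole ventricles were run with the 10x Genomics 3' kit (v3.1). The deposited matrices hold UMI counts per gene and barcode, made by the authors with Cell Ranger 7.1.0 on mm10; Seurat 4.3.0 is also named in the submitters' processing notes. Whether the study's ambient RNA correction came before these counts is not given in the sources used here. No earlier normalization was applied to the counts.

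Barcodes were kept with between 200 and 7000 detected genes if mitochondrial counts made up no more than 20%, ribosomal counts no more than 35% and haemoglobin counts no more than 2%. The highest doublet scores (0.8% per 1000 cells) were removed, 416 to 1531 per library, leaving 6796 to 12302 cells. Marker genes, summed per 10000 UMIs, gated the classes: at least 15 of the endothelial list; coronary, at least 20 of the coronary list; endocardial, under 10 of it, then mural (at least 8 and over 2 times the valve list) or valve (at least 5). Every endothelial cell also had at most 50 of the cardiomyocyte list, 40 of the fibroblast and mesenchyme list and 5 of the immune list. Coronary cells needed more of the coronary than of the mural list, and valve cells more of the valve than of the mural list. Within coronary cells, cycling (at least 10) came first, then arterial (at least 5) or venous-leaning (at least 4). These thresholds were set after seeing marker values, not SoxF values, and 182 cells lay between the coronary thresholds. A name given here by gate may differ from the study's clusters.

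Counts were summed per class and library and tested with edgeR 4.0.16 (R 4.3.3; TMM, filterByExpr, quasi-likelihood, Benjamini-Hochberg over all genes tested, threshold 0.05). Class differences and class by condition terms had the library as a block. SE is the log2 fold change divided by the square root of F. Alternatives were total count scaling, DESeq2 1.42.0, no filter, each library left out, no doublet removal, at least 1000 genes with at most 10% mitochondrial counts, a stricter gate, and the replicate block. The fit without mural cycling cells was added after seeing the data. Steps were tested on simulated data. Shares used 2000 UMIs per cell, drawn without replacement (alternatives 1000 and all UMIs), with 95% exact intervals; Python 3.11.15, numpy 2.4.6 and scipy 1.17.1.

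Named genes were the 3 members, Ets1, other Sox genes past the threshold, up to 4 called list genes per class with the largest change, and the 3 genes most like each member (Pearson r of log2 of CPM plus 1). Efnb2, Prox1 and Sox5 were named outside this rule, after their values were seen. The members and lists were chosen with earlier results of these data known. The 2 libraries of a group are separate pools by their labels, and p-values measure the spread between such pools.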

Additional observations from a re-analysis of the deposited data

Results flagged for a closer look

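The change of Sox18 in eKO against control differed between mural and coronary endothelium by a test of the difference itself. Sox18 fell by 2.40 on the log2 scale in mural endocardium and by 0.93 in all coronary cells, and the coronary minus mural term was 1.46 ± 0.19 (adjusted p = 8.87e-05, edgeR, n = 2 against 2). Sox18 was lower in 2 of 2 eKO libraries than in both controls on either side of the comparison. Of the 9 class by condition terms fitted for the SoxF genes, this was the one that passed.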

How the results depend on the processing

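Sox18 in mural endocardium, the Sox18 coronary minus mural term and the coronary minus mural differences of all 3 genes kept their direction and call in every alternative run. With the replicate block, which pairs libraries that share only a number (correlation of same-numbered deviations 0.0154 in mural, -0.0417 in valve and -0.0883 in coronary cells), Sox18 in all coronary cells was -0.93 and lost its call (adjusted p = 0.061), and no other call of a SoxF gene changed. With each library left out, Sox18 in coronary cells ranged from -1.20 to -0.71, Sox17 in coronary cells from -0.079 to 0.36, Sox18 valve minus mural from 0.50 to 1.15 and Sox7 valve minus mural from -0.43 to -0.19. Without the low-count filter Sox18 in valve cells was called (-1.35), as was Sox7 valve minus mural (-0.35). Sox18 valve minus mural was not called with the stricter cell filter (0.71), the stricter gate (0.94) or the controls alone (0.41). Sox17 in valve cells turned to 0.49 with the stricter gate. Genes called numbered 527 in mural, 60 in valve and 130 in coronary cells. Total count scaling moved the median of all genes for coronary minus mural from -0.05 to -0.24 and its calls from 4310 higher and 4476 lower to 3318 and 5867. DESeq2 called 332, 7 and 66, no filter 1104, 174 and 327, and the stricter gate 7 in valve cells. With each library left out the counts ranged from 337 (without control 1) to 1573 (without eKO 1), 70 to 161 (without eKO 2; 126 without control 1 and 135 without eKO 1) and 133 to 590 (without eKO 1; 275 without eKO 2). Values with no call also changed sign. For Sox7 these were arterial (-0.17 to 0.33), valve minus mural term (-0.42 to 0.088) and arterial minus other term (-0.04 to 0.48) with a library left out. For Sox17 with a library left out these were arterial (-0.12 to 0.051), venous-leaning (-0.48 to 0.25), other coronary (-0.23 to 0.62) and the arterial minus other term (-0.64 to 0.19). With the stricter gate Sox17 was 0.43 in arterial and -0.15 in other coronary cells, 0.83 for the valve minus mural term and 0.64 for the arterial minus other term, and 0.016 in arterial cells with the stricter cell filter. The Sox18 arterial minus other term ranged from -0.28 to 0.66. The causes were not tested. With 2 libraries a group and as few as 5 Sox18 UMIs in a venous-leaning sum, depth limits the smaller classes.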

Other observations

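Within each library, the share of cells with a Sox18 UMI was counted in cells with and without an Ets1 UMI, at 2000 UMIs per cell. In mural endocardium of control 1 the Sox18 share was 8.11% of cells with Ets1 and 6.77% of those without, and in control 2 it was 3.88% and 4.53%. In eKO 1, 0 of 164 mural cells with an Ets1 UMI held Sox18, which allows a share of cells with a UMI of up to 1.83% by the 3-count floor and 2.22% by the exact 95% interval, beside 0.698% of those without. In eKO 2 the shares were 2.39% and 1.07%. The exact intervals overlapped in each library, which from so few cells does not show that the shares are alike. In valve endocardium the shares with and without Ets1 were 13.2% and 7.02% in control 1, 2.70% and 7.69% in control 2, 6.25% and 2.27% in eKO 1, and 0 of 18 cells (exact upper limit 18.5%) and 2.61% in eKO 2. In coronary cells the Sox18 shares with and without Ets1 were 22.1% and 23.1% in control 1, 11.5% and 17.3% in control 2, 7.78% and 6.31% in eKO 1, and 11.5% and 10.1% in eKO 2. Absence of an Ets1 UMI in a thinned cell does not show that the cell lacked the transcript.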
